A study of Homo sapiens with 7 samples.

Results

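The transcripts of the proteasome, the protease that degrades ubiquitin-tagged proteins, were followed in the human neuroglioma line H4 during activation of the integrated stress response (ISR) by light. Members were the rows whose symbol is PSMA, PSMB, PSMC or PSMD with a number, PSME1 to PSME4, or PSMF1. The complete tables listed 43 such genes among 18817 genes, and 42 passed the count filter, among 13566 genes tested. The gene left out, PSMA8, a testis form of a core subunit, had at most 2 counts in a library.

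All libraries came from cells that carry Cry2Olig-PKR, a fusion that clusters under blue light and joins a photoreceptor to PKR, a kinase of the translation factor eIF2. Cells were lysed after 0, 60, 120, 240, 480, 600 or 720 min of continuous blue light, and 1 library was made per time with a CEL-Seq2 adaptation, which counts transcript 3' ends with unique molecular identifiers (UMIs). The 480 min table stops before the PSM rows in alphabetical order, so members have 6 libraries. Lit cells without the fusion and unlit cells at later times were not analysed here, so light and time in the plate cannot be told apart. No time was repeated: a single time has no replicate check, and the spread in the fits is departure from the fitted shape, which may be technical. In bulk RNA, a change in the cells present and a change per cell cannot be told apart either. The 6 complete tables held 7048253 to 8911818 transcripts and 2.08 to 2.38 reads per UMI, with the 60 and 120 min libraries lowest in reads per UMI, at 2.11 and 2.08. Of the neural and glial markers, VIM stood between 681.6 and 885.8 CPM in the complete tables (transcript counts scaled to the TMM-normalised library size) and SOX2 between 15.9 and 54.5 CPM, OLIG2 was at 5.1 CPM unlit and 20.5 CPM at 600 min, NES had at most 14 counts, and GFAP and S100B were not analysed here. PTPRC, EPCAM and PECAM1, markers of blood, epithelium and endothelium, had at most 3, 2 and 7 counts. The part of reads per UMI and of these markers in the results was not tested.

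The proteasome has a barrel-shaped core of stacked rings. Outer alpha subunits gate the entrance, and inner beta subunits hold the cutting sites, of which PSMB5, PSMB6 and PSMB7 are catalytic. A cap of ATPases and non-ATPase subunits binds ubiquitin, unfolds the substrate and feeds it in. Interferon is known to induce PSMB8, PSMB9 and PSMB10, which replace the catalytic beta subunits in the immunoproteasome and alter the peptides shown to T cells, and the activator subunits PSME1 and PSME2. When proteasomes are short of capacity, the transcription factor NFE2L1 is known to raise the subunit genes together.

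Most proteasome transcripts fell to a shallow low at 240 min of light and then returned towards the unlit level. Members have no value between 240 and 600 min, so the lowest point may lie in that gap. At 60, 120, 240, 600 and 720 min the median log2 ratio of the 42 genes to 0 min (prior count 2) was -0.24, -0.33, -0.48, -0.16 and -0.09. With UMI counts in place of transcript counts it was smaller at 60 and 120 min, -0.13 and -0.16. Over all 13566 genes the same median lay between -0.03 and 0.00 at these times. At 240 min 35 of the 42 members stood below their 0 min level and 7 above. Of the 5858 genes fitted on 6 libraries, 2848 stood below and 3010 above. The 240 min library was also the lowest of the 6 for 24 of the 42 members, and the 0 min library was the lowest for 0. Among the 5858 genes the 240 min library was the lowest for 1177 and the 0 min library for 1335. The summed level of the members in the 6 libraries, in order of time, was 11535, 9839, 9216, 8662, 10270 and 10664 CPM.

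**Figure D1:**
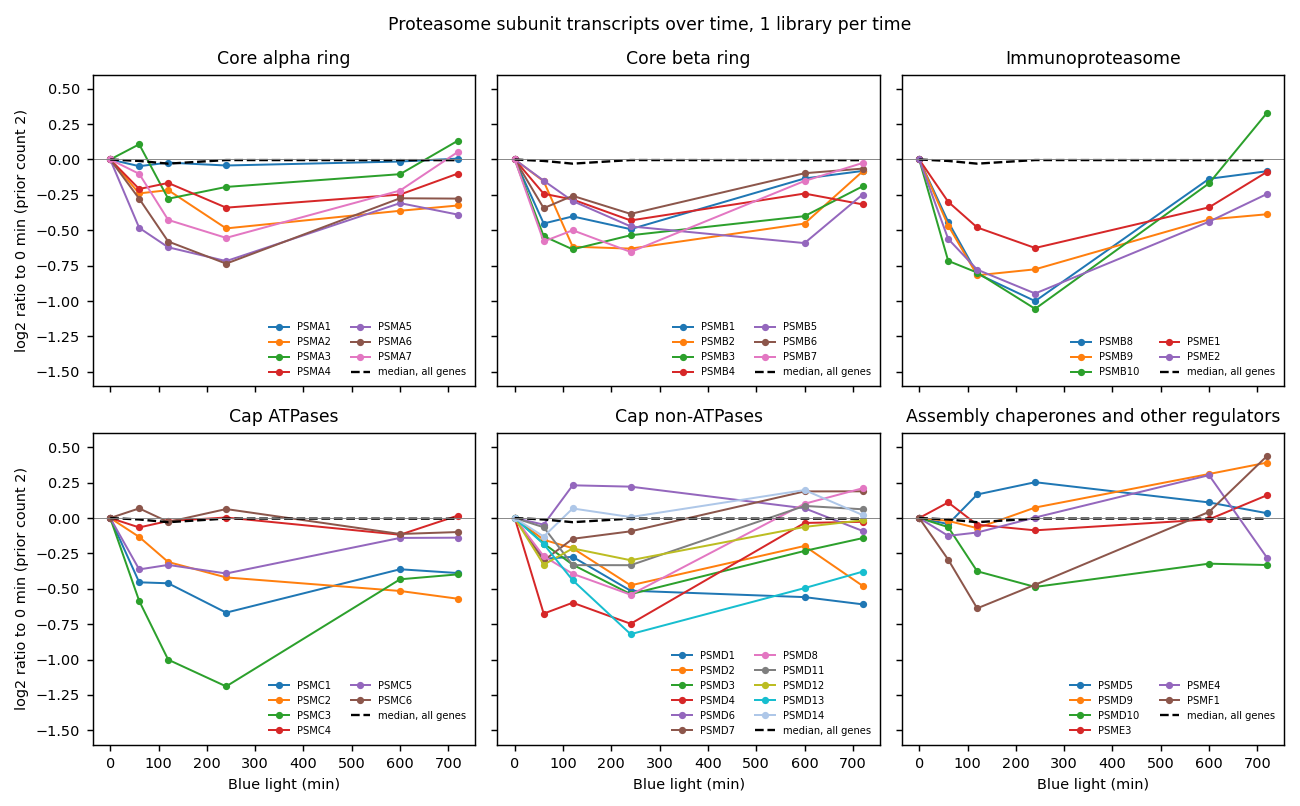
Each line is the log2 ratio of 1 gene to its 0 min level (y axis, prior count 2) against minutes of blue light (x axis), in 6 panels by role; the dashed line is the median of all genes tested. The immunoproteasome panel dips lowest as a group, with a median of -0.95 at 240 min, and most lines in the other panels lie between 0 and -0.75 at that time.

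The dip was tested on a quadratic curve of the log level on minutes; its bend is how far the curve at 360 min lies from the midpoint of its values at 0 and 720 min. Of the 42 members 16 bent downward and 0 upward (edgeR quasi-likelihood test, adjusted p under 0.05), where 13.7% of all genes tested bent downward and 17.5% upward. The fitted bend was negative in 37 of the 42, with a median of -0.38 against 0.01 over all genes tested. A steady trend from 0 to 720 min was called in 0 members in the edgeR test, where 3.9% of all genes rose and 2.96% fell. Unadjusted in edgeR, 4 members had a trend p under 0.05, where 3129 of the 13566 genes tested did. DESeq2 also called 0 members, where 854 of all genes rose and 718 fell.

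These calls rest mainly on the 0 and 240 min libraries and in part on that at 120 min. Without the 240 min library 0 members bent downward, where 3.72% of all genes did, and without the 0 min library 2 did, PSMA7 and PSMB2, where 5.37% did. Without the 120 min library 9 did, where 9.99% did. Without the 60, 600 or 720 min library the counts were 15, 22 and 21, where 12.1%, 14.2% and 13.2% of all genes did. The fitted bend stayed negative in 36 to 38 of the 42 members without any 1 of these 6 libraries. Without 240 min the adjusted p of the 16 genes ran from 0.0582 to 0.321 in edgeR. Without the 0 min library 3 members gained a rising trend in edgeR, where 5.7% of all genes rose: PSMB10 by 1.11 (adjusted p = 0.031), PSMF1 by 0.85 (adjusted p = 0.0344) and PSMD4 by 0.74 (adjusted p = 0.0405).

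In size the changes were modest, and all ratios share the single 0 min library. At least 1.5-fold below 0 min were 3 of 42 members at 60 min (4.38% of all genes with 50 or more counts in either library). The later times, in order, had 10 (12.5% of all genes), 13 (18.0%), 1 (13.1%) and 1 (12.9%). At least 1.5-fold above were 0 members at each of the 5 times, where between 7.96% and 22.6% of all genes were. At 120 and 240 min the members past this limit thus all lay on the lower side.

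**Figure D2:**
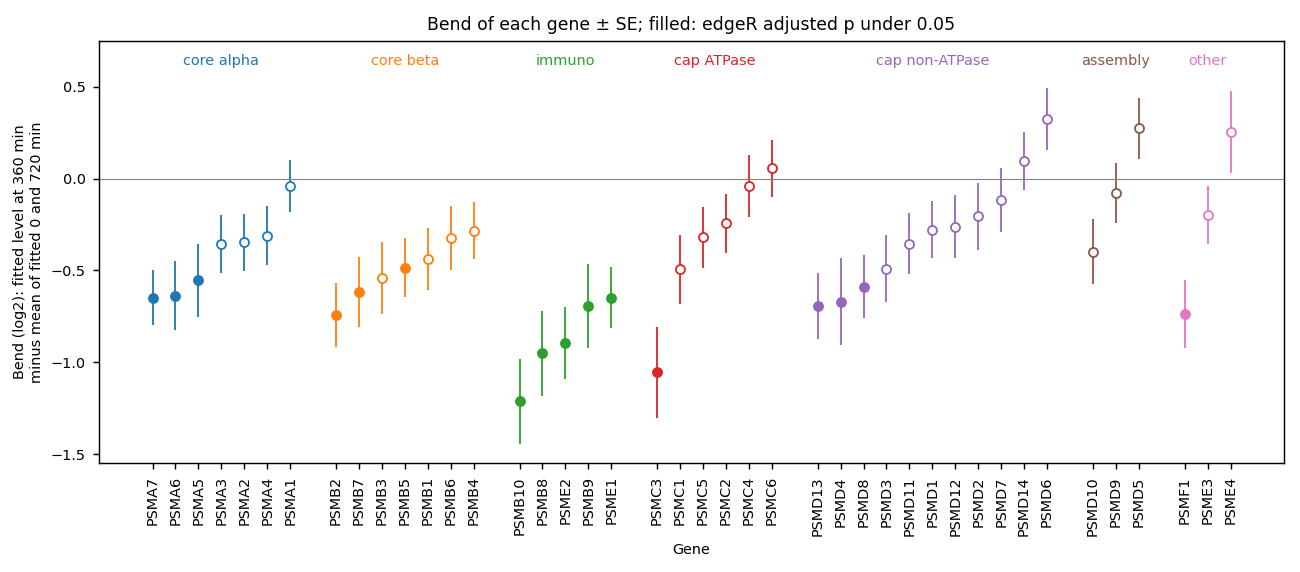
Points are the fitted bend of each of the 42 genes in log2 (y axis) with its SE, grouped by role along the x axis, and filled where the edgeR adjusted p is under 0.05. The 16 filled points all lie below 0, and the 5 immunoproteasome genes are all among them, with bends from -0.65 to -1.21.

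The alpha ring of the core was lower in the middle of the course, to differing degrees. Of its 7 genes 3 bent downward (42.9%, against 13.7% of all genes tested). They were PSMA7, by -0.65 ± 0.15 (SE, edgeR adjusted p = 0.00694), PSMA6, by -0.64 ± 0.19 (adjusted p = 0.0206), and PSMA5, by -0.55 ± 0.20 (adjusted p = 0.0466). PSMA7 stood at 508.5, 474.0, 378.2, 346.3, 436.7 and 527.9 CPM at 0, 60, 120, 240, 600 and 720 min. It was thus lowest at 240 min and at its unlit level by the end. PSMA6 went from 349.3 CPM through 209.7 CPM at 240 min to 288.4 CPM at 720 min. PSMA5 went from 442.9 CPM through 269.2 CPM to 338.0 CPM. These 2 recovered part of the way. PSMA1, in the same ring, stayed between 440.7 and 457.3 CPM in all 6 libraries, with a bend of -0.04 ± 0.14 (edgeR adjusted p = 0.845). The log2 ratio at 240 min ranged from -0.74 for PSMA6 to -0.04 for PSMA1 within a ring whose subunits assemble in equal number. At 720 min it ranged from -0.39 for PSMA5 to 0.13 for PSMA3. PSMA2, PSMA3 and PSMA4 did not pass, with bends from -0.36 to -0.31. Without the 0 or 120 min library PSMA5 and PSMA6 were no longer called (adjusted p from 0.0577 to 0.584), and PSMA5 also not without 60 min (0.0539) or with read counts (0.0748).

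In the beta ring 7 of 7 genes stood below their unlit level at each of the 5 later times. Of the 5858 genes fitted on 6 libraries between 2848 and 2963 did. The median log2 ratio of the 7 was -0.34 at 60 min, -0.49 at 240 min and -0.08 at 720 min. Called downward were 3 of the 7 (42.9%, against 13.7% of all genes tested). PSMB2 bent by -0.74 ± 0.17 (edgeR adjusted p = 0.0071) and PSMB7, the trypsin-like catalytic subunit, by -0.62 ± 0.19 (adjusted p = 0.0262). PSMB5, the chymotrypsin-like subunit that proteasome inhibitor drugs bind, bent by -0.49 ± 0.16 (edgeR adjusted p = 0.0345). PSMB2 stood at 223.3, 200.7, 145.6, 144.3, 163.1 and 210.6 CPM. Its low spanned 120 and 240 min. PSMB7 had lost much of its level by 60 min: it stood at 362.6, 242.6, 256.4, 230.5, 326.4 and 356.4 CPM. PSMB5 declined more slowly and was lowest at 600 min, at 240.1, 216.4, 195.8, 172.9, 159.3 and 202.1 CPM. PSMB3 lay at the threshold (-0.54 ± 0.20, edgeR adjusted p = 0.0501) and passed in 8 of 15 alternatives. PSMB6, the caspase-like subunit (-0.32, adjusted p = 0.164), PSMB1 (-0.44, adjusted p = 0.0616) and PSMB4 (-0.28, adjusted p = 0.174) did not pass in edgeR. The call of PSMB7 was lost without 0 min (adjusted p = 0.468), without 120 min (0.0615) or with read counts (0.0504). That of PSMB5 was lost in 8 of 15 alternatives, among them the libraries at 0, 60, 120 and 720 min left out in turn (adjusted p from 0.055 to 0.17) and the log time scale (-0.19, adjusted p = 0.314).

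The immunoproteasome genes dipped as a set. Of 5 genes 5 bent downward in edgeR, where 13.7% of all genes tested did. The summed CPM of these 5 was 778.7 at 0 min, 430.0 at 240 min and 714.3 at 720 min. Each of the 5 stood at least 1.5-fold below 0 min at 240 min. Of all genes that met the count limit given above, 18.0% did. The median log2 ratio of the 5 genes at the 5 later times was -0.47, -0.80, -0.95, -0.34 and -0.09. For the alpha and beta rings together the medians at 120 and 240 min were -0.35 and -0.49. No test of the difference between role groups was made.

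PSMB10, which takes the place of PSMB7, had the most negative bend of the 42 members, -1.21 ± 0.23 (edgeR adjusted p = 0.00269). Its counts were 446, 228, 235, 228, 407 and 500, or 52.5, 31.9, 30.1, 25.1, 46.7 and 66.0 CPM. Most of the fall was present by 60 min, and the last library was the highest of the 6, at 1.26-fold of 0 min (95% interval 1.1 to 1.43, counting error only). PSMB8, which takes the place of PSMB5, bent by -0.95 ± 0.23 (edgeR adjusted p = 0.00989), at 201.9, 148.7, 115.3, 100.8, 183.7 and 190.6 CPM. Its 240 min level was 0.499 of the unlit level (0.460 to 0.541), and its 720 min level 0.944 (0.880 to 1.01). PSMB9, which takes the place of PSMB6, bent by -0.69 ± 0.23 (edgeR adjusted p = 0.0339), at 71.9, 52.0, 40.7, 41.9, 53.6 and 55.0 CPM. It remained below the unlit level at the end, at 0.764 (0.673 to 0.867).

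The activator ring genes also had their low at 240 min. PSME2 bent by -0.90 ± 0.20 (edgeR adjusted p = 0.00512), at 238.5, 161.6, 139.0, 123.6, 175.9 and 201.5 CPM. PSME1 bent by -0.65 ± 0.16 (edgeR adjusted p = 0.0105), at 213.8, 173.7, 153.2, 138.5, 169.1 and 201.2 CPM. Their products form a joint ring, and the counts of PSME1 were 0.896 of those of PSME2 at 0 min (0.841 to 0.955) and 1.12 at 240 min (1.03 to 1.22). Without the 0 min library these 5 bends lay between -0.29 and -0.70 and were not called (edgeR adjusted p from 0.0535 to 0.407), nor without 240 min (-0.62 to -1.15, adjusted p from 0.0582 to 0.186). PSMB9 was also lost without 60 min (0.056) or 120 min (0.0817). In the alternatives that kept all libraries, all 5 stayed called.

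Beyond their course, 4 of the 5 immunoproteasome genes also share a promoter element. The interferon-stimulated response element bound by IRF factors, read as GAAA, any 2 bases and GAAA, was searched on both strands in RefSeq promoter windows (GRCh38.p14, 250 bases before to 50 after a start); 38 of the 43 members have at least 1 window. PSMA7, PSMB1, PSMB6, PSMB7 and PSMD4 have none. It occurs in 4 of the 5 immunoproteasome genes and in 2 of the other 33 matched members, PSMA4 and PSMB4, against 4.38% of the genes and 3.57% of the windows in the table, which holds 35116 windows. The stretches from 40 bases before to 15 after the start are shown for these 5 genes, because the matches lie there; capitals mark the match, which reads GAAAGCGAAA or, on the other strand, TTTCGCTTTC.
PSMB8, chr6:32844033-32844087, minus strand: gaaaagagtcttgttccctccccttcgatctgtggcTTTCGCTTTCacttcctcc
PSMB10, chr16:67936836-67936890, minus strand: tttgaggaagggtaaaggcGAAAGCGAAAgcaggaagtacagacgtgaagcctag
PSME1, chr14:24136154-24136208, plus strand: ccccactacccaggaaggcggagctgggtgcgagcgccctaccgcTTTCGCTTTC
PSME2, chr14:24146596-24146650, minus strand: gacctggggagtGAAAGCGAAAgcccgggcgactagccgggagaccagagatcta
PSMB9, chr6:32854152-32854206, plus strand, no match: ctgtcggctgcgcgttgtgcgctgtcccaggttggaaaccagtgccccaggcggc
The same 10 letters stand in 4 of 4 matches here and in 35 of all 35116 windows (0.0997%), a string singled out after the matches were seen. PSMB8 has 2 windows and the match lies in 1 of them. A match describes the sequence only.

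**Figure D3:**
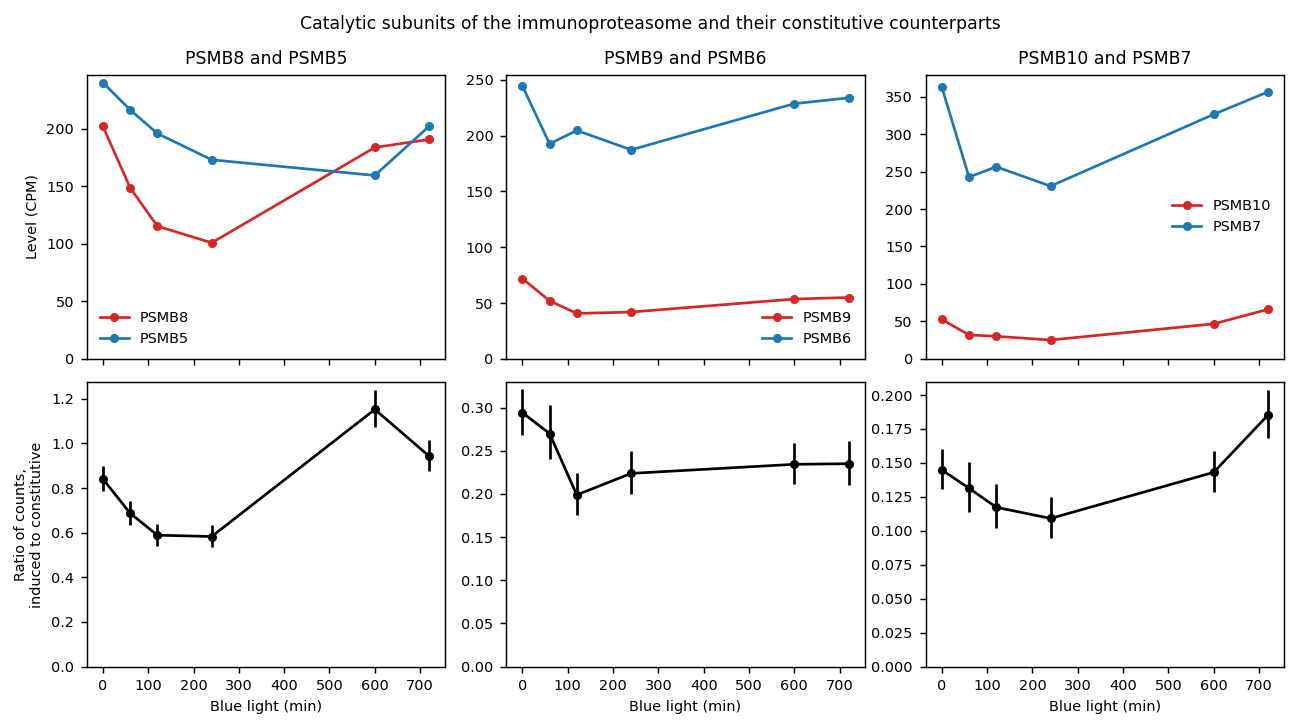
Upper panels give the level in CPM of each immunoproteasome catalytic subunit (red) and its constitutive counterpart (blue) against minutes of blue light; lower panels give the ratio of their counts with exact binomial 95% intervals. The PSMB8 to PSMB5 ratio falls from 0.841 to 0.583 at 240 min and stands at 1.15 at 600 min.

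The balance of induced to constitutive catalytic subunits changed over time by more than the counting error that the binomial intervals cover. A 3' UMI count stands for 1 transcript end whatever the length, but capture and read matching may differ between genes. What is read here is the change of each ratio over time, not which gene of a pair was more abundant. The ratio of PSMB8 to PSMB5 counts was 0.841 at 0 min (95% interval 0.788 to 0.897), 0.687 and 0.589 at 60 and 120 min, 0.583 at 240 min (0.537 to 0.633), 1.15 at 600 min (1.07 to 1.24) and 0.943 at the end (0.877 to 1.01). The ratio was thus lower up to 240 min and above its unlit value at 600 min, where PSMB5 was at its lowest. The ratio of PSMB9 to PSMB6 went from 0.294 (0.268 to 0.322) to 0.199 at 120 min (0.176 to 0.224) and was 0.235 at 720 min (0.211 to 0.262). The ratio of PSMB10 to PSMB7 went from 0.145 (0.131 to 0.160) to 0.109 at 240 min (0.0947 to 0.125) and 0.185 at 720 min (0.168 to 0.204). The first of these ended at 0.943 against 0.841, with intervals that overlap. The second ended below its start and the third above it, with intervals that do not overlap. These are single libraries with no replicate check.

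Among the 6 cap ATPases, the motor ring of the cap, 1 was called (16.7%, against 13.7% of all genes tested). PSMC3 bent by -1.05 ± 0.25 (edgeR adjusted p = 0.00842), at 244.3, 162.7, 122.0, 107.0, 180.9 and 185.3 CPM. At 240 min it was at 0.438 of the unlit level (0.405 to 0.473), the lowest ratio of the 42 members at that time, and at 720 min at 0.759 (0.708 to 0.812). PSMC4 and PSMC6, which sit in the same ring, hardly moved: PSMC4 lay between 97.5 and 107.1 CPM and PSMC6 between 252.1 and 285.8 CPM, with bends of -0.04 and 0.05. PSMC2 stood lower at each later time, from 242.8 CPM unlit to 163.4 CPM at 720 min, and its trend of -0.49 ± 0.17 did not pass (edgeR adjusted p = 0.13). PSMC1 (-0.49, adjusted p = 0.0583) and PSMC5 (-0.32, adjusted p = 0.155) did not pass for the bend in edgeR. The spread of the 6 ATPase ratios at 240 min, from -1.19 to 0.06 in log2, was the widest of the role groups. The PSMC3 call was lost without 0 min (-0.56, edgeR adjusted p = 0.115) and without 240 min (-0.89, adjusted p = 0.133).

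Of the 11 non-ATPase cap subunits 3 bent downward (27.3%, against 13.7% of all genes tested). PSMD13, a lid subunit, bent by -0.70 ± 0.18 (edgeR adjusted p = 0.0112), PSMD4, a ubiquitin receptor, by -0.67 ± 0.24 (adjusted p = 0.0485) and PSMD8, a lid subunit, by -0.59 ± 0.17 (adjusted p = 0.0195). PSMD13 stood at 184.2, 162.1, 135.8, 104.2, 130.7 and 141.6 CPM, with its low at 240 min and a partial return. PSMD4 was already low at 60 min and was back at 600 min: it stood at 133.6, 83.6, 88.2, 79.5, 130.4 and 131.2 CPM. PSMD8 ended above its start, at 387.7, 321.5, 295.0, 266.2, 415.7 and 448.5 CPM. PSMD1, a scaffold of the cap base, declined without return, at 431.5, 353.5, 356.7, 302.2, 292.9 and 282.7 CPM. Its ratio at 720 min, 0.655 (0.621 to 0.691), was the lowest of the 42 members at that time, and its trend of -0.48 ± 0.17 did not pass (edgeR adjusted p = 0.138). PSMD2, the other large scaffold, took another course, at 416.8, 374.6, 359.5, 299.7, 363.4 and 299.1 CPM. It returned in part at 600 min and was at its 240 min level again at 720 min.

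The other non-ATPase subunits did not pass in either direction. PSMD14, the deubiquitinase of the lid, lay between 313.5 and 393.7 CPM with a bend of 0.09 ± 0.16 (edgeR adjusted p = 0.673), and PSMD6 was highest at 120 min, at 162.5 CPM against 138.5 CPM at 0 min, with a bend of 0.32 ± 0.17 (adjusted p = 0.156). An antisense gene named after it, PSMD6-AS2, had at most 15 counts. PSMD7, PSMD11 and PSMD12 had bends from -0.35 to -0.12, and PSMD3 one of -0.49 (edgeR adjusted p = 0.0564). PSMD4 lost its call in 5 of 15 alternatives, among them without 0 min (-0.15, adjusted p = 0.659), without 120 min (0.0949), with RLE size factors (0.0522) and with read counts (0.0526). PSMD8 lost its call without 0 min (adjusted p = 0.214), without 120 min (0.0517) and with read counts (0.0568), and PSMD13 without 0 min (0.0635) and on the log time scale (0.0767).

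The PSMD names include 3 chaperones that assemble the cap base and are not part of the finished particle. Of PSMD5, PSMD9 and PSMD10, 0 of 3 bent or had a trend in edgeR (unadjusted, 1 had a p under 0.05 for each). Over all genes tested 13.7% bent downward, 17.5% bent upward, 3.9% rose and 2.96% fell. Unadjusted, 5891 of these 13566 genes had such a p for the bend and 3129 for the trend. PSMD5 was highest at 240 min, at 173.2 CPM against 145.3 CPM at 0 min, the highest ratio of the 42 members at that time, 1.19 (1.11 to 1.29). PSMD9 was 120.9, 119.2, 115.1, 127.3, 150.0 and 158.7 CPM, at 1.31-fold (1.21 to 1.43) of its start at 720 min, with a trend of 0.44 ± 0.16 that did not pass (edgeR adjusted p = 0.143). PSMD10, known as gankyrin, stood at 167.2 CPM at 0 min and 119.2 CPM at 240 min, with a bend of -0.40 ± 0.18 (edgeR adjusted p = 0.101). The summed level of these 3 lay between 406.9 and 440.5 CPM in the 6 libraries.

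The remaining regulators parted from each other. PSMF1, first described as a proteasome inhibitor, bent by -0.74 ± 0.18 (edgeR adjusted p = 0.00998), at 155.3, 126.6, 99.7, 111.9, 160.0 and 210.4 CPM. It was lowest at 120 min and had the highest 720 min ratio of the 42 members, 1.36 (1.26 to 1.46). Its call was lost without 0 min (-0.46, adjusted p = 0.129) and without 240 min (-0.88, adjusted p = 0.0621). PSME3, the nuclear relative of PSME1 and PSME2, lay between 248.9 and 295.6 CPM with a bend of -0.20 ± 0.16 (edgeR adjusted p = 0.357). The ratio of PSME2 to PSME3 counts accordingly went from 0.902 at 0 min (0.849 to 0.958) to 0.497 at 240 min (0.462 to 0.534) and 0.681 at 720 min (0.638 to 0.728). PSME4, a single-chain activator, had a bend of 0.25 ± 0.22 (edgeR adjusted p = 0.404), with 87.2 CPM at 600 min and 58.1 CPM at 720 min, its highest and lowest values.

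Members also differed in level, which the rule did not use. At 0 min levels ran from 52.5 CPM for PSMB10 to 605.5 CPM for PSMB1 among the 42, although most subunits assemble in equal number. PSMD3 was the lowest of the standard core and cap subunits, at 80.6 CPM. The part of capture and read matching in such differences between genes was not tested. Across the 42 members the log2 mean level had a Pearson correlation of 0.20 with the bend, given as a description, since the values share libraries and depth. No member exceeded 2929 UMIs in a library.

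Other promoter motifs were searched in the same windows. TGACNNNGC, the antioxidant response element bound by NFE2L1 and NFE2L2, was found on either strand in 13 of the 38 matched members and in 28.3% of their 46 windows, against 13.3% of all windows. The 13 include PSMB9, PSME1 and PSME2 of the immunoproteasome genes. Of the tested members 3 of 13 with it and 10 of 24 without it bent downward, against 13.7% of all genes tested. The median bends were -0.31 with it and -0.38 without it. PSMA7, PSMB7 and PSMD4, which also bent downward, have no window and are not in these counts. The NF-Y box CCAAT stood in 39.1% of member windows and 34.6% of all windows. TGATGNAA, the composite element known for ATF4, stood in 1 member window, that of PSMF1 (2.17% against 3.62% of all windows). Matches of different motifs overlapped in 0 cases.

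Genes that build, load or control the proteasome moved in both directions. Of such genes on a list by role, 35 were tested: 4 bent downward, 2 bent upward, 1 rose and 0 fell (edgeR), and the median bend was -0.18. The 4 are 11.4% of the list, against 13.7% of all genes tested, and upward bends and rises were called in 17.5% and 3.9% of all genes. POMP, the maturation factor of the core, bent by -0.56 ± 0.16 (edgeR adjusted p = 0.0198), the ATPase VCP, which extracts ubiquitin-tagged proteins, by -0.61 ± 0.15 (adjusted p = 0.00975), its cofactor NPLOC4 by -0.53 ± 0.17 (adjusted p = 0.0314) and the ubiquitin gene UBB by -0.50 ± 0.17 (adjusted p = 0.0378). POMP stood at 405.5 CPM at 0 min, 264.8 at 240 min and 355.9 at 720 min. ZFAND2A, a stress-induced proteasome partner, bent upward by 0.65 ± 0.21 (edgeR adjusted p = 0.0319) and stood at 47.2, 97.5 and 117.7 CPM at 0, 240 and 720 min.

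The transcription factors of the system went different ways while the subunits dipped. NFE2L2, the oxidative stress factor, had a positive bend of 1.15 ± 0.16 (edgeR adjusted p = 0.000839), called in 15 of 15 alternatives. It stood at 149.0, 327.9, 241.6 and 129.1 CPM at 0, 240, 480 and 720 min. NFE2L1 was 163.5, 156.1, 123.5 and 129.4 CPM at 0, 60, 120 and 240 min. At 480, 600 and 720 min it was 218.9, 245.4 and 250.7 CPM, with a trend of 0.88 ± 0.23 that did not pass (edgeR adjusted p = 0.0517). NGLY1, the enzyme that removes sugar chains from NFE2L1, rose by 0.93 ± 0.23 (edgeR adjusted p = 0.0406). It stood at 24.0, 46.5 and 42.1 CPM at 0, 480 and 720 min. On the interferon side, IRF1, which binds the element printed above, was 90.7, 321.8 and 94.9 CPM at 0, 240 and 480 min. PSMB8, PSMB10, PSME1 and PSME2 were lowest at 240 min and have no 480 min value. The IRF1 bend did not pass (1.22 ± 0.71, edgeR adjusted p = 0.256), and TAP1, TAP2 and TAPBP had neither call. NGLY1 was not called in edgeR without 0, 60, 120, 480 or 600 min (adjusted p from 0.0605 to 0.197). UBB was lost in 10 of 15 alternatives (edgeR or DESeq2 adjusted p from 0.0541 to 0.412), among them 0, 120, 240, 600 or 720 min left out. NPLOC4, POMP, VCP and ZFAND2A were lost without 0 min (edgeR adjusted p from 0.0591 to 0.398) and without 240 min (0.105 to 0.317), and NPLOC4, POMP and ZFAND2A also without 120 min (0.0519 to 0.08). NPLOC4, VCP and ZFAND2A were lost on the log time scale too, and VCP with UMI counts (0.0676).

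**Figure D4:**
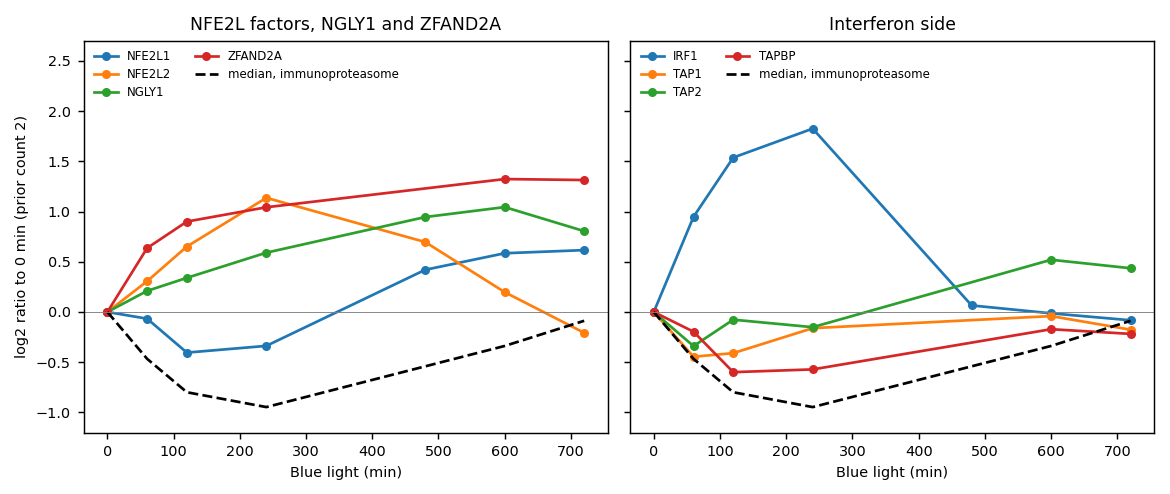
Lines are log2 ratios to 0 min (y axis, prior count 2) against minutes of blue light for genes of proteasome control (left) and of the interferon side (right); the dashed line is the median of the 5 immunoproteasome genes. NFE2L2 and IRF1 stand highest at 240 min, where the dashed line is at its lowest, -0.95.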

How the data were processed

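Per library, tables of reads, UMIs and transcripts by gene were deposited; the transcripts, expected counts that need not be whole, are the authors' UMI counts corrected for UMIs drawn more than once. The submitters' processing notes name BWA and hg19; versions, annotation and the handling of multiply matching reads are not given in the sources, so subunits with near-identical processed copies or overlapping antisense genes are uncertain. The column of barcode 4, which the labels name, was used, and 95 other barcode columns per table were not. Transcript counts were rounded; spike-in rows (under 0.0125% of gene reads) were left out. Sequences and their GRCh38.p14 positions are RefSeq's; the files use hg19, so no other coordinates are given.

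Genes that reached 10 counts in 3 or more libraries were fitted with edgeR 4.0.16 in R 4.3.3 (TMM, robust quasi-likelihood). Genes that alphabetically precede the stop of the 480 min table had 7 libraries and the rest, members included, 6, with 4 residual degrees of freedom for the trend and 3 for the bend. Benjamini-Hochberg adjustment covered both sets at once, with a threshold of 0.05. Ratios to 0 min have no test. Their exact binomial 95% intervals treat the rounded transcript counts as observed counts and cover counting error only. They leave out the spread added by the correction for UMIs drawn more than once, so they are too narrow for abundant genes. Self-tests on simulated counts were run. Alternatives, DESeq2 1.42.0 among them, are given at the end. All members may be named; in full, those called, those highest or lowest at 240 or 720 min in their role group, and the immunoproteasome genes with their counterparts; of the pathway list, those called. Members, lists, motifs and the 1.5-fold limit were chosen with earlier results of these data known. Of the pathway list, 2 genes are not reported here and are left out of its counts.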

Additional observations from a re-analysis of the deposited data

How the results depend on the processing

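Each result was recomputed under 15 alternatives: UMI or read counts, RLE size factors, no or a stricter count filter, log or rank time, DESeq2, and each library left out. With 1 library per time, leaving out a library removes a time. The number of members bending downward was 12 to 18 in the alternatives that kept all libraries, against 16, and 0 to 22 with a library left out. Of all genes tested, 9.7% to 15% bent downward in the former and 3.72% to 14.2% in the latter. For the immunoproteasome genes 5 of 5 were called in the former and 0 to 5 in the latter. The number of members with a trend was 0 in the former and 0 to 3, all rising, in the latter. Of all genes tested, 2.79% to 6.3% rose in the former and 0.64% to 5.7% in the latter. Upward bends of members numbered 0 throughout, where between 820 and 2522 of all genes tested bent upward. Of the 16 called bends, 0 held in every alternative, and 8 further members gained one in some. With UMI counts the median log2 ratio of the members was smaller, -0.13 at 60 min, -0.16 at 120 min and -0.34 at 240 min, against -0.24, -0.33 and -0.48. Uncorrected UMI counts compress differences between abundant genes by construction, and the part of this in the smaller ratios was not tested. No called member changed sign. No paired analysis was possible because each time has 1 library. Tested members had 228 to 5143 counts in a library; the spread between cultures was not measured.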
